A study of Monodelphis domestica with 8 samples.

Results

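The regions described here are H3K4me3 peaks that carried neither H3K9Ac nor H3K27me3 and lay well away from any acetylated H3K4me3 peak, in fetal brain of the female opossum Monodelphis domestica, a laboratory marsupial. They were taken from the deposited H3K4me3 peak list on chromosomes 1 to 8. Peaks were chosen by their overlap with, and distance from, the called peaks of the other lists. A peak entered if it shared not even 1 bp with a peak of the H3K9Ac or H3K27me3 list and lay 5 kb or more, edge to edge, from every H3K4me3 peak that met H3K9Ac. Of 22086 autosomal H3K4me3 peaks, 12729 met no H3K9Ac, and 9726 of these met no H3K27me3 either. Among these 9726 peaks, 1299 lay under 5 kb from an acetylated H3K4me3 peak and 8427 lay farther away. The 8427 peaks, called distant H3K4me3-only peaks below, made up 38.2% of the autosomal H3K4me3 list (exact Clopper-Pearson 95% interval 37.5% to 38.8%) out of 54517 peaks in the 4 lists together. The absence of H3K9Ac and H3K27me3 is therefore the way they were chosen and not a finding.

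The series comprised 8 libraries of chromatin immunoprecipitation and sequencing (ChIP-seq), with 2 for each of H3K4me3, H3K9Ac, H3K27me3 and H3K9me3. All came from fetal brain at embryonic day 13, and no group was treated. In each pair, 1 library came from a cross of an LL2 mother with an LL2 father and the other from a cross of an LL1 mother with an LL2 father, and each library pooled 2 sister fetuses. Chromatin was cut with micrococcal nuclease and shared out among the antibodies. The 2 libraries of each mark refer to 1 peak list between them, so each mark had 1 set of values with no replicate error, the crosses cannot be told apart, and no test over samples was possible. The intervals given cover the counting of peaks in a list and nothing else. Read counts were not analysed here and the depth is unknown. No source used here names the genome build, so peaks are named by the positions of the lists and not by gene or sequence, and the brain label could not be checked against marker genes.

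H3K4me3 is laid down by the SET1 and MLL methyltransferase complexes and is the standard mark of promoters, above all those rich in unmethylated CpG. H3K9Ac is placed by acetyltransferases such as GCN5 and PCAF and usually accompanies H3K4me3 at promoters in use. H3K27me3 is the product of Polycomb repressive complex 2 and forms bivalent chromatin together with H3K4me3, while H3K9me3 marks constitutive heterochromatin. Whole brain holds many cell types, and a mark present in few cells cannot be told apart from one that is weak in all of them.

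The distant H3K4me3-only peaks were mostly weak and narrow, with a minority that scored as high as acetylated H3K4me3 peaks. Peaks are ranked by the authors' score, which starts at 50.01 in the H3K4me3 list. How it was computed is not stated in the labels or files. Whether it measures height or significance is therefore not known. It grows with width, and 106 autosomal peaks hold exactly 3100 with 31 above, so the order at the very top is uncertain. Weak and strong refer to this score. The median score was 160 (95% interval of the median 155 to 166), with 25% of peaks under 78.2 and 10% above 723. H3K4me3 peaks that carried H3K9Ac without H3K27me3 had a median of 809 (792 to 827, 8713 peaks). Bivalent peaks with H3K27me3 and no H3K9Ac had a median of 193 (186 to 204, 3003 peaks), and the H3K4me3-only peaks close to acetylated ones had 124 (115 to 133, 1299 peaks). A score under 100 was held by 2923 of the distant H3K4me3-only peaks (34.7%) and by 4.36% of the acetylated class. The median width was 1516 bp (1497 to 1534 bp) against 2752 bp in the acetylated class and 1759 bp in bivalent peaks. These medians come from the list that the rule used, and a wider peak meets other lists more readily, so they are a description without a test.

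Width followed score. Spearman's rho between score and width was 0.87 over the 8427 peaks, which share a single list and one set of calls. When the autosomal H3K4me3 list was divided into 10 equal score classes, distant H3K4me3-only peaks and acetylated peaks of the same class had nearly the same median width. In the lowest class (scores 50.01 to 66.09) the medians were 956 bp and 998.5 bp. In the sixth class (344.3 to 505.5) they were 2165.5 bp and 2131 bp, and in the highest (1343 to 3233) 4472 bp and 4411 bp. The distant H3K4me3-only peaks were slightly narrower in the 4 lowest of the 10 classes and slightly wider in all the higher ones. A gap as large as that between the overall medians was not seen at matched score.

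**Figure D1:**
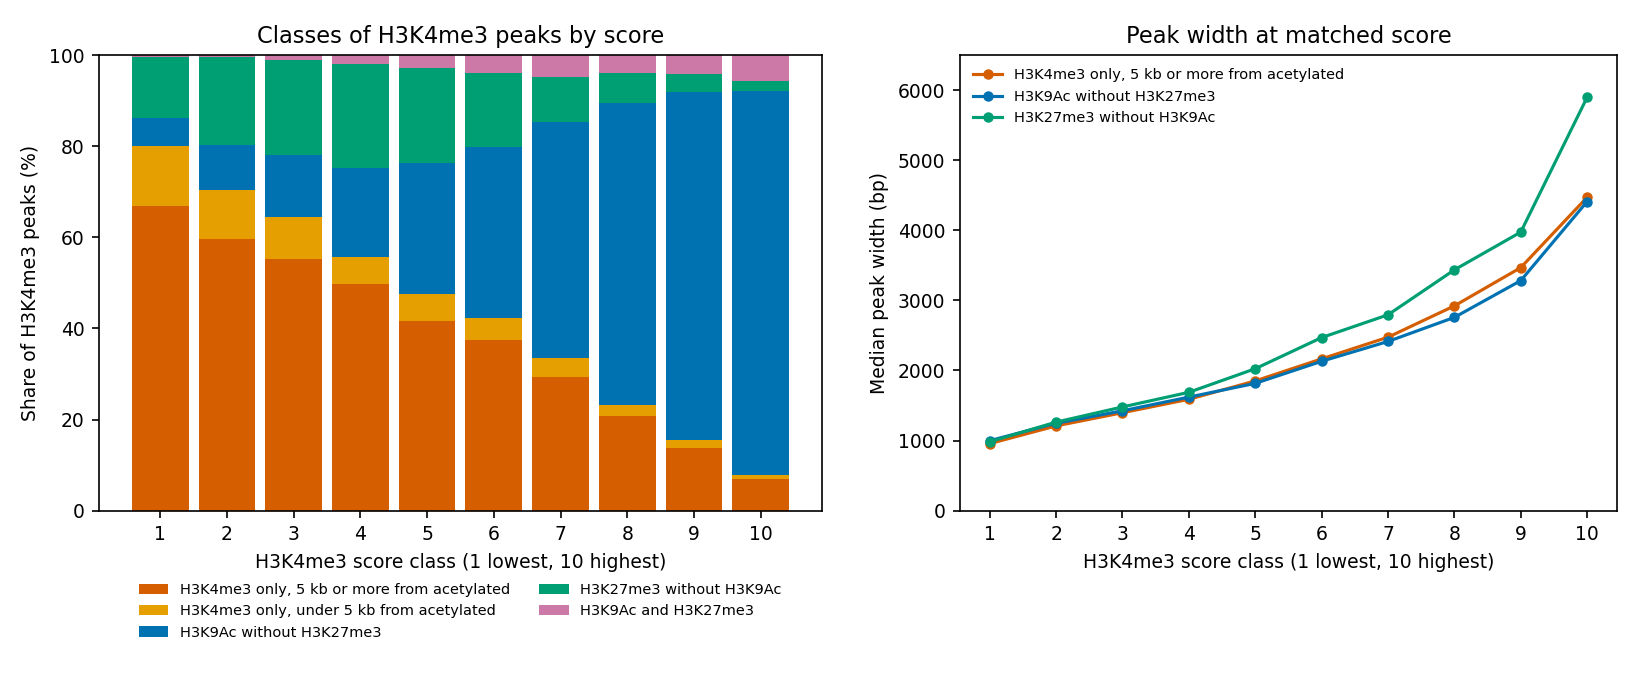
Left, share of autosomal H3K4me3 peaks in each of 5 classes (%) in 10 equal classes of the list ranked on H3K4me3 score; the distant H3K4me3-only class shrinks from 66.8% in the lowest score class to 6.93% in the highest. Right, median peak width (bp) of 3 classes at matched score; the curves of distant H3K4me3-only and acetylated peaks lie close together, from 956 and 998.5 bp to 4472 and 4411 bp.

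Distant H3K4me3-only peaks took a smaller share of the list at higher scores. The share was 66.8% in the lowest score class, 41.7% in the fifth and 6.93% in the highest, while the share with H3K9Ac was 6.56%, 31.6% and 90.04% in the same classes. The lowest 3 classes held 4015 of the distant H3K4me3-only peaks (47.6%). The H3K9Ac list was itself shorter, with 11858 autosomal peaks against 22086, and its autosomal median score of 84.5 lay near its lowest score of 50.01. When acetylation was read from the top-scoring 50% of H3K9Ac peaks, the number of distant H3K4me3-only peaks was 12182, so their number depends on where the H3K9Ac list stops.

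Strong peaks without H3K9Ac were nevertheless present. Of the 8427 peaks, 685 (8.13%) scored at or above 809, the median of the acetylated class, against 25.2% of all autosomal H3K4me3 peaks. These 685 had a median width of 3414 bp and lay a median of 74.4 kb from the nearest acetylated H3K4me3 peak. Of these 685, 7 lay under 5 kb from an H3K9Ac peak, 17 lay under 5 kb from H3K27me3 and 1 met H3K9me3. Over all 8427 peaks the counts were 94 (1.12%), 472 (5.60%) and 21 (0.249%). The count near H3K9Ac is limited by the rule, which bars H3K9Ac overlap and sets a distance from acetylated H3K4me3 peaks. The highest score class held 153 distant H3K4me3-only peaks beside 1989 peaks with H3K9Ac. They were spread over the 8 autosomes, from 36 on chromosome 1 to 9 on chromosome 6, and 62 of them lay more than 100 kb from an acetylated H3K4me3 peak.

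The strongest was chr3:455036169-455041992, with a score of 3152 and a width of 5824 bp, 61.9 kb from the nearest peak of the list and 113.7 kb from H3K27me3. The next, chr6:133342262-133349115, scored 3099 over 6854 bp. It was the highest-scoring of a run of 3 peaks, with scores of 78.4 and 54.9 for its 2 companions. This peak lay 1826 kb from the nearest acetylated H3K4me3 peak. Its 1 Mb bin held 6 H3K4me3 peaks, and all 6 were distant H3K4me3-only peaks. The other three were chr5:208560436-208568016 (score 2956, 7581 bp wide, 462 kb from the nearest peak of any list), chr7:194032915-194041191 (score 2740, 8277 bp) and chr5:18607505-18613563 (score 2679, 6059 bp, 13.4 kb from an H3K9Ac peak). All 5 exceeded the 90th percentile of the acetylated class, which was 1755.

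The 5 widest peaks were of another kind, with scores in the lower or middle part of the list. The widest, chr3:113403732-113416970, spanned 13239 bp with a score of 485 and met an H3K9me3 peak. The next were chr7:270965-280973 (10009 bp, score 190), chr2:538152170-538161209 (9040 bp, score 73.1), chr3:504561011-504569896 (8886 bp, score 52.2) and chr2:538176216-538184935 (8720 bp, score 159). Of these 5, the chromosome 7 peak lay 0.264 Mb and the 2 chromosome 2 peaks 3.32 and 3.29 Mb from an end of the stretch covered by the lists. The fourth sat 5.23 kb from an H3K9me3 peak.

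The surroundings of the peaks were examined next. The median distance to the nearest acetylated H3K4me3 peak was 90.9 kb (interquartile range 36.8 to 211 kb), well beyond the 5 kb of the rule. Bivalent peaks, for which no distance was set, lay at a median of 100.4 kb (37.0 to 245 kb). Such distances were therefore not particular to this class. In all, 3963 peaks (47.0%) lay more than 100 kb away and 198 (2.35%) more than 1000 kb away. Between 5 and 10 kb there were 432 peaks (5.13%), between 10 and 20 kb 697 (8.27%) and between 20 and 50 kb 1612 (19.1%). These ranges differ in length, so the small share next to the limit does not mean that peaks were sparse there. The 5 peaks just inside lay at 5007, 5018, 5023, 5034 and 5050 bp, with scores between 112 and 1134. The 5 that missed the limit most narrowly lay at 4999, 4987, 4968, 4942 and 4937 bp, with scores between 128 and 572. Over single peaks score was only weakly related to this distance (Spearman's rho -0.08 over 8427 peaks of a single list), but medians differed between distance classes. The median score was 169 at 5 to 10 kb, 194 (181 to 210) at 20 to 50 kb, 159 at 100 to 200 kb and 118 (104 to 139.7) at 500 to 1000 kb.

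**Figure D2:**
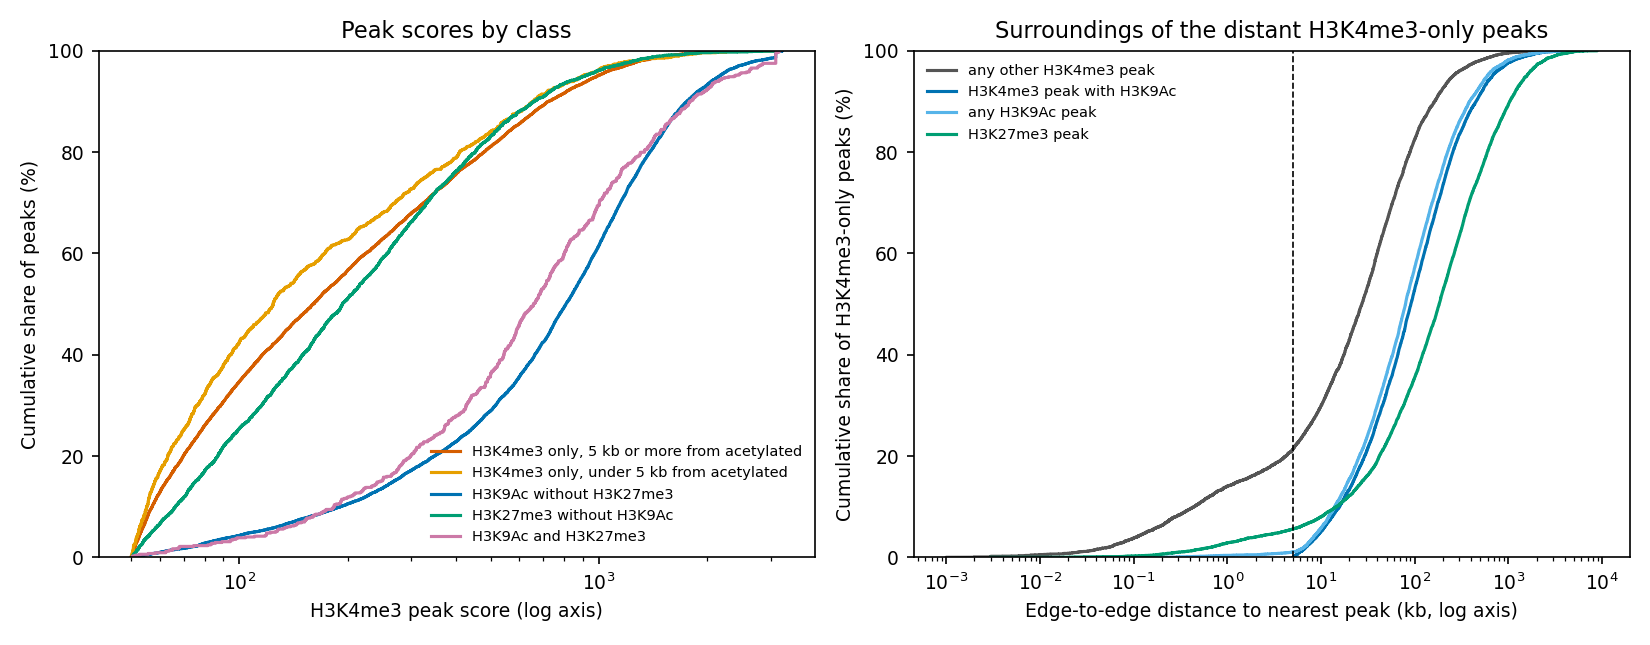
Left, cumulative share of autosomal H3K4me3 peaks (%) against their score (log axis) in 5 classes; the distant H3K4me3-only curve (median 160) runs between the bivalent curve (193) and that of H3K4me3-only peaks near acetylated ones (124) over the weaker part of the range, and the acetylated classes lie to the right. Right, cumulative share of the 8427 distant H3K4me3-only peaks (%) against edge-to-edge distance to the nearest peak of each kind (kb, log axis), with the 5 kb limit dashed; 21.3% had another H3K4me3 peak within 5 kb and 5.60% an H3K27me3 peak.

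Most of the peaks stood alone, but acetylated H3K4me3 peaks were spaced alike. The median distance to the nearest other H3K4me3 peak was 27.3 kb (lower quartile 6.91 kb). It was 28.4 kb (6.24 kb) in the acetylated class and 22.8 kb (3.09 kb) over all autosomal H3K4me3 peaks. The rule also left out H3K4me3-only peaks with an acetylated neighbour under 5 kb away. With neighbouring distant H3K4me3-only peaks under 5 kb apart joined, the 8427 peaks formed 7583 units, of which 6843 were single peaks, 651 pairs, 75 triplets, 13 runs of 4 and 1 a run of 5. Runs of 2 or more held 1584 peaks (18.8%, exact interval 17.97% to 19.6%). No such share was computed for the other classes, so runs are not shown to be particular to this one. The 844 gaps inside runs had a median of 516 bp, and 239 were under 200 bp. Whether such neighbours are separate peaks or parts of a single region was not tested. Peaks in runs and single peaks had median scores of 165 and 159. The run of 5 spanned 12.02 kb at chr2:517201315-517213338. Its middle peak, 4317 bp wide, scored 1132, and the 4 around it scored between 63.5 and 111.5. An H3K9Ac peak without H3K4me3 lay 2.60 kb from its first peak, while the nearest acetylated H3K4me3 peak was 187 kb off.

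The most isolated peak, chr3:123645259-123646736 (1478 bp, score 156), had no other peak of any of the 4 lists within 2945 kb. It was followed by chr5:151581037-151583899 (score 95.2, 2279 kb), chr6:23530638-23531945 (score 101, 1924 kb), chr6:49166435-49167748 (score 68.2, 1655 kb) and chr2:222057148-222060531 (score 834, 1591 kb). The last of these was a strong peak of 3384 bp, whereas the first 4 were weak.

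H3K27me3 lay close to more of these peaks than to acetylated ones. The rule barred overlap with H3K27me3 but set no distance from it. Of the 8427 peaks, 472 (5.60%, exact interval 5.12% to 6.11%) lay under 5 kb from an H3K27me3 peak, against 3.91% of all autosomal H3K4me3 peaks that did not meet H3K27me3. The share was 1.92% (1.64% to 2.23%) in the acetylated class and 6.31% (5.05% to 7.78%) among H3K4me3-only peaks near acetylated ones, whose interval overlaps that of the distant peaks. No test of these differences was run, because peaks of a single list are not replicates. Of the 472, 244 lay under 1 kb from H3K27me3, 40 had it on both sides, and 199 also had an H3K4me3 peak with H3K27me3 within 5 kb. Their median score of 146 was below the 162 of the other distant H3K4me3-only peaks. The share under 5 kb from H3K27me3 stayed between 4.79% and 7.32% at all distances from acetylated peaks.

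H3K9Ac without H3K4me3 was about as frequent beside these peaks as beside other H3K4me3 peaks. The autosomes held 1186 such H3K9Ac peaks, and 82 of them (6.91%) lay under 5 kb from a distant H3K4me3-only peak. Of the 8427 peaks, 93 (1.104%, 0.892% to 1.35%) lay under 5 kb from such an H3K9Ac peak, the nearest at 30 bp, against 1.14% of all autosomal H3K4me3 peaks. The acetylated class had 1.24% (1.02% to 1.49%). These 93 had a median score of 96.95 and a median width of 1286 bp. The 82 H3K9Ac peaks beside them were weak as well, with a median H3K9Ac score of 64.0 against 84.5 for all autosomal H3K9Ac peaks, and 77 of the 82 scored under 100.

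H3K9me3, which the rule did not use, met few of the peaks. It was found at 21 of 8427 (0.249%, exact interval 0.154% to 0.381%), against 0.484% of all autosomal H3K4me3 peaks. The acetylated class had 0.275% (0.177% to 0.410%), an interval that overlaps, and bivalent peaks had 1.63% (1.21% to 2.15%). Per Mb of sequence under peaks the values were 1.39 for the distant H3K4me3-only class, 0.911 for the acetylated class and 7.82 for bivalent peaks. These differences were not tested. Chromosome 3 held 10 of the 21 peaks. It also held 28 of the 107 autosomal H3K4me3 peaks that met H3K9me3, and 178 of the 699 autosomal H3K9me3 peaks. Of the 10, 5 lay in its distal part beyond 500 Mb, where 87 of the 178 H3K9me3 peaks lay. The H3K9me3 score was highest at chr7:15711840-15713549, at 565, where the H3K4me3 score was 596. H3K27me3 lay 2.16 kb from this peak and an acetylated H3K4me3 peak 1395 kb from it. The next were chr7:229944119-229945866 (H3K9me3 score 220), chr1:745973894-745974965 (185), chr3:501667762-501669255 (127) and chr4:68290522-68291700 (126). The median H3K9me3 score at the 21 was 77.3, against 58.1 for all autosomal H3K9me3 peaks.

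Along the genome the distant H3K4me3-only peaks were present on every autosome and were denser toward the last-listed end on 7 of 8. Per Mb of the stretch between the first and last listed peak there were 2.47 on the autosomes together, from 1.81 on chromosome 7 to 2.96 on chromosome 2, a ratio of 1.64 (exact interval 1.48 to 1.82). Between the same chromosomes all H3K4me3 peaks ranged from 4.45 to 7.77 per Mb, and those with H3K9Ac from 1.85 to 3.22 per Mb. This contrast in density was thus not particular to the class. The interval does not allow for the choice of the lowest and highest chromosome. As a share of H3K4me3 peaks they ranged from 35.4% on chromosome 1 (34.1% to 36.7%) to 42.4% on chromosome 3 (40.6% to 44.1%). These are the lowest and highest of the 8 autosomes, and the intervals cover counting only. The difference was not tested. Median scores lay between 156 and 177 on 7 of the 8 autosomes and at 128 on chromosome 7.

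The last 10 Mb of the 8 autosomes, counted back from the last listed peak, held 475 of the peaks (5.64%), against 3.66% of all autosomal H3K4me3 peaks. There were 5.94 per Mb in these stretches and 2.38 per Mb elsewhere. H3K4me3 peaks with H3K9Ac numbered 2.49 and 2.74 per Mb in the same stretches. The distant H3K4me3-only share of H3K4me3 peaks was 58.7% (55.2% to 62.1%) in the last 10 Mb and 37.4% (36.7% to 38.0%) elsewhere, and without chromosome 3 it was 55.9% and 36.8%. The share was higher in the last 10 Mb on 7 of 8 chromosomes. Chromosome 2 had 70.9% against 37.2%, chromosome 3 70.3% against 40.9% and chromosome 1 67.9% against 34.9%. Chromosome 8 was the exception, with 33.3% against 38.3%. The share was also higher there in all 10 score classes, for example 56.7% against 36.5% in the sixth, though the top class rests on 21 H3K4me3 peaks in the last 10 Mb. Distant H3K4me3-only peaks in the last 10 Mb had a median score of 191 against 158 elsewhere, and median widths were 1613 bp and 1512 bp. The difference was not tested, since 8 chromosomes of a single list are not replicates.

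Densities above the autosomal value were also found farther in from the last peak and, less evenly, at the other end. Within 2 Mb of the last peak there were 8.50 per Mb, at 5 to 10 Mb 4.85 per Mb, at 20 to 40 Mb 4.89 per Mb and at 40 to 80 Mb 3.77 per Mb. From the first listed peak the density was 3.88 per Mb within 2 Mb, 2.42 per Mb at 2 to 5 Mb, 4.23 per Mb at 5 to 10 Mb and 1.76 per Mb at 40 to 80 Mb. Within the first 10 Mb chromosome 8 had 7.60 per Mb and chromosome 2 had 7.20 per Mb. Chromosome 3 had 1.20 per Mb there, against 2.52 per Mb over its whole length. On chromosomes 4, 5 and 6 the values were close to those over the whole length (2.60 against 2.67, 1.80 against 1.92 and 2.40 against 2.44 per Mb).

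**Figure D3:**
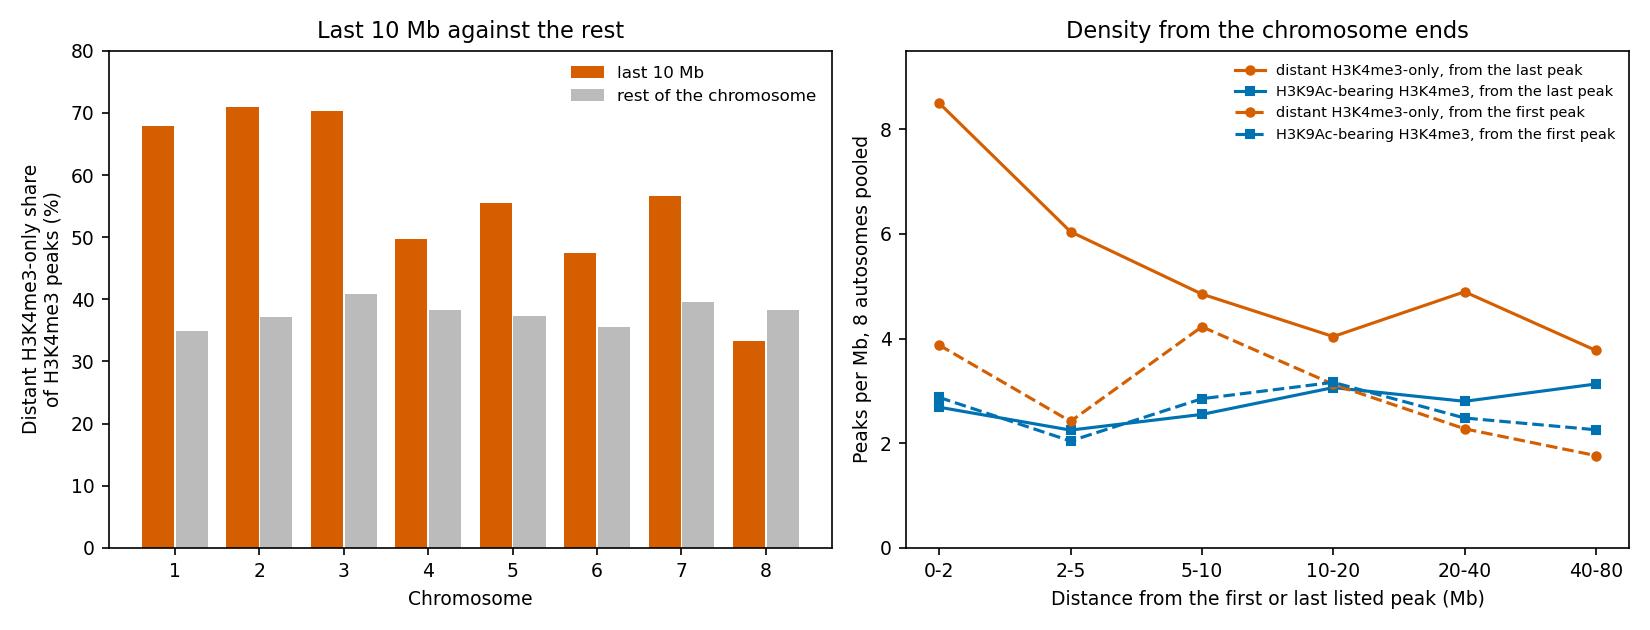
Left, distant H3K4me3-only share of H3K4me3 peaks (%) in the last 10 Mb and the rest of each autosome; the share is higher in the last 10 Mb on 7 of 8 chromosomes, and lower on chromosome 8. Right, peaks per Mb over the 8 autosomes by distance (Mb) from the first or last listed peak, for distant H3K4me3-only peaks and for H3K4me3 peaks with H3K9Ac; the first reach 8.50 per Mb within 2 Mb of the last peak where the second have 2.69, and the second range from 2.04 to 3.16 over all distances shown.

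On a finer scale the peaks were spread over most 1 Mb bins, with a small number of dense ones. Of 3425 autosomal bins, 2395 held at least 1, with a median of 1 per bin, and 139 bins with 10 or more held 1848 of the peaks (21.9%). The fullest was the chromosome 4 bin starting at 383 Mb, with 31 distant H3K4me3-only peaks among 46 H3K4me3 peaks, next to the bin at 384 Mb with 29 of 45. The chromosome 8 bin at 12 Mb had 28 of 37. On chromosome 3 the bin at 503 Mb held 27 of 29 and the bin at 500 Mb 24 of 29. In the bin at 501 Mb, 24 of 28 H3K4me3 peaks were of this class and the other 4 were bivalent. The median scores in these 6 bins ran from 186 to 326, above the overall median of 160. They lie on 3 chromosomes, and 2 of the 3 places hold adjacent or nearly adjacent bins.

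Bins with more acetylated peaks held more distant H3K4me3-only peaks in number, but as a smaller share of their H3K4me3 peaks. The mean was 0.821 per bin in the 945 bins without an acetylated H3K4me3 peak, 1.98 in bins with 1 or 2, 3.22 in bins with 3 to 5, 4.66 in bins with 6 to 10 and 7.30 in the 83 bins with 11 or more. The share of H3K4me3 peaks, whose total includes the acetylated ones, was 71.7%, 46.0%, 37.1%, 31.8% and 28.0% in the same order. Spearman's rho over the 3425 bins was 0.53 with the number of acetylated H3K4me3 peaks and 0.35 with that of bivalent peaks. Bins of a chromosome share the mappable sequence and the same pooled libraries, so these are descriptions. Along the H3K4me3 list, 49.9% of distant H3K4me3-only peaks were followed by a distant H3K4me3-only peak, as were 32.1% of peaks with H3K9Ac and no H3K27me3. The class made up 38.2% of that list. The rule fixed part of this contrast, because an H3K4me3-only peak under 5 kb from an acetylated one falls in another class. It is therefore no evidence that the class clusters with itself.

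In 274 bins the distant H3K4me3-only peaks, 485 in all, were the sole H3K4me3 peaks. The fullest of these was the short last bin of chromosome 3, at 527 Mb, with 11 peaks scoring from 84.9 to 925, of which 3 lay under 5 kb from H3K27me3. The chromosome 8 bin at 35 Mb held 9 peaks scoring from 55.4 to 289. The chromosome 4 bin at 410 Mb held 7, of which 6 scored between 305 and 704 and 1 scored 50.1, and the nearest to an acetylated H3K4me3 peak was 306 kb away. That bin held moderately strong H3K4me3, and its lack of acetylated H3K4me3 peaks follows from the way these bins were chosen.

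**Figure D4:**
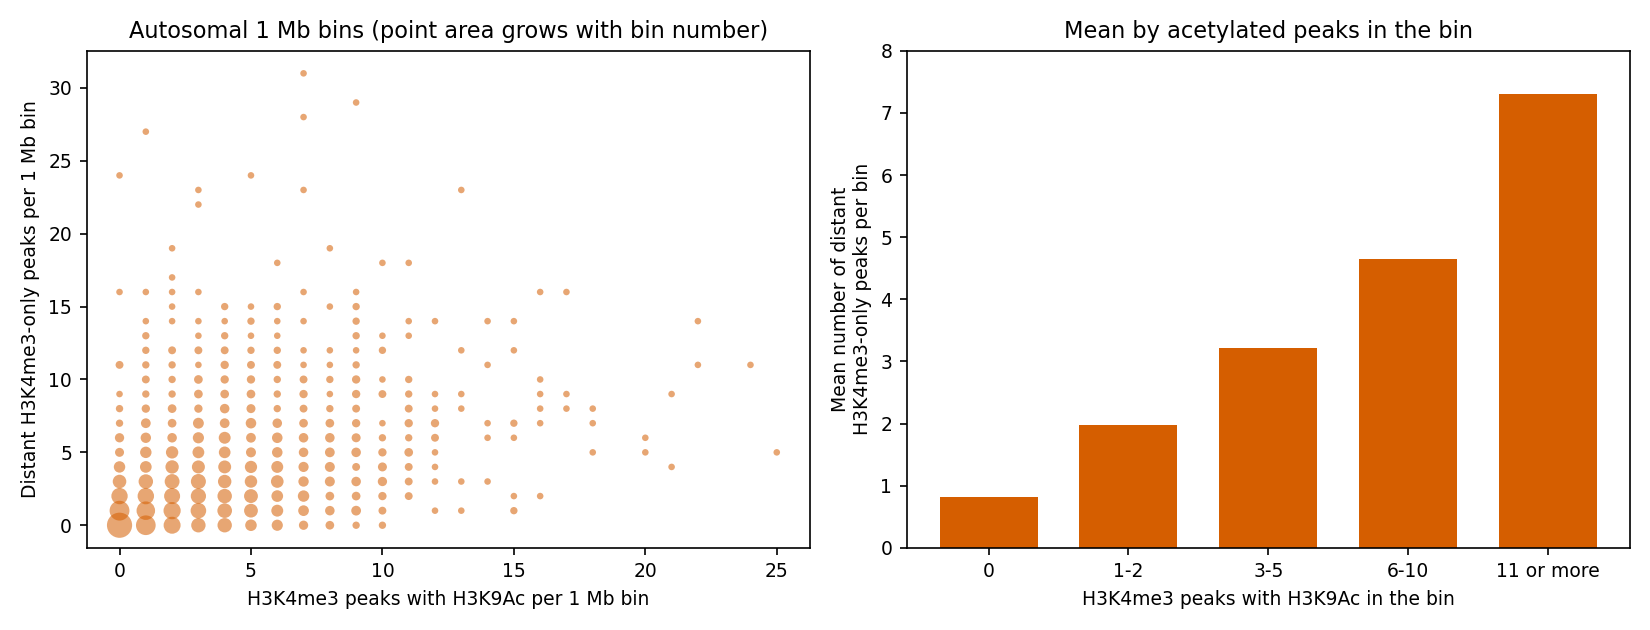
Left, number of distant H3K4me3-only peaks against number of H3K4me3 peaks with H3K9Ac in each of 3425 autosomal 1 Mb bins, with point area growing with the number of bins; the 6 fullest bins hold 24 to 31 distant H3K4me3-only peaks beside at most 9 acetylated ones. Right, mean number of distant H3K4me3-only peaks per bin by number of acetylated H3K4me3 peaks in the bin, from 0.821 in bins with none to 7.30 in bins with 11 or more.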

How the data were processed

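Per the labels' protocols, micrococcal nuclease-digested chromatin of sister fetuses was pooled and immunoprecipitated. The submitters' processing notes list MACS 1.0.1, Bowtie 1.1.2 and CASAVA 1.7 and give no settings. No source used here states the build, control library, threshold or how libraries were combined. The 4 deposited lists give position and a score per peak, which is the authors' own value, was not recomputed, and was used within a list. Starts are printed counting from 1.

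Overlap needed 1 bp, distances are edge to edge, and the span of a chromosome is the stretch bounded by its outermost peaks in any list. Shares have exact Clopper-Pearson 95% intervals and medians exact binomial order-statistic intervals. No test was run, because each mark has 1 pooled list and peaks are not replicates. Regions named are the 5 highest-scoring, widest and most isolated peaks, the 5 with the highest-scoring H3K9me3, the 5 on either side of 5 kb, and the fullest runs and bins. The peaks and all rules were chosen with earlier results of these data known, and the division by score class, the profile from chromosome ends, the bins holding a single class and the narrow high-scoring peaks were chosen after values were seen. A gene table of another assembly was not used. The classification was tested on simulated peaks. Alternatives numbered 7. Python 3.11.15, numpy 2.4.6, pandas 2.3.3, scipy 1.17.1 and matplotlib 3.10.9 were used.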

Additional observations from a re-analysis of the deposited data

Results flagged for a closer look

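The same rule applied outside the autosomes also found peaks. On X, 138 of 500 H3K4me3 peaks met it (27.6%, exact interval 23.7% to 31.7%), with a median score of 109 and a median width of 1327 bp, and 1 of them met H3K9me3. The H3K9Ac list had 108 peaks on X. The rule also bars H3K27me3 overlap, and only 7485 of the 17394 H3K27me3 peaks lay on chromosomes 1 to 8. The others were not counted by sequence. Shares outside the autosomes were therefore not compared with the autosomal share. On unplaced sequence 966 of 1401 H3K4me3 peaks met the rule (68.95%, 66.5% to 71.4%), with a median score of 91.6 and a median width of 1833 bp, and 17 met H3K9me3. The lists give unplaced sequence under 1 name, and no source used here states how its pieces were joined, so the distances on it are not those of a known chromosome.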

How the results depend on the processing

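The number of distant H3K4me3-only peaks and their properties were recomputed under 7 alternatives. A limit of 2 kb or 20 kb gave 8761 or 7298 peaks, distance from every H3K9Ac peak 8333, and distance of 5 kb from H3K27me3 7955, and under these 4 every median, share and density ratio computed stayed within its interval. With an overlap of 50% of the shorter peak there were 8787, and the share near H3K27me3 moved to 8.99%, since peaks that touch H3K27me3 by less than this now count as near it. With the top-scoring 50% of H3K4me3 peaks there were 2663, with a median score of 575, a median width of 2524 bp, 4.77% in runs, 4.17% near H3K27me3 and a density ratio of 2.23 between the densest and sparsest autosome. With the top-scoring 50% of H3K9Ac peaks there were 12182, with a median score of 224, a median width of 1696 bp, 23.0% in runs and 5.02% near H3K27me3. The share meeting H3K9me3 stayed within its interval under all 7. No paired analysis was possible because both libraries of a mark share 1 list, and no library could be left out for the same reason. Depth is unknown, and scores near 50 are at the lower limit of the lists.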

Other observations

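A few distant H3K4me3-only peaks combined a high score with a narrow width, against the trend of the class. The 4133 peaks narrower than 1500 bp had a median score of 78.4 and a 99th percentile of 400. The 4 highest scores among them were at chr4:18701197-18702617 (1421 bp, score 2655), chr8:256730120-256731613 (1494 bp, score 2025), chr4:221509975-221511459 (1485 bp, score 1199) and chr1:285526596-285527573 (978 bp, score 1189). These 4 lay 5.73 to 32.2 kb from the nearest acetylated H3K4me3 peak and at least 179 kb from H3K27me3. The fifth, chr3:454251285-454252416 (1132 bp, score 842), fell outside both ranges. It lay 118 kb from an acetylated H3K4me3 peak and 91.8 kb from H3K27me3. All of these peaks were chosen after their values were seen.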
